A study of Mus musculus with 6 samples.

Results

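The genes examined were the 10 that encode the calcium store of the heart muscle cell and its partners: the pump Atp2a2 and its small inhibitors Pln and Sln, the release channel Ryr2 with Trdn and Jph2, the calcium-binding proteins Casq2, Casq1 and Hrc inside the store, and the exchanger Slc8a1 of the plasma membrane. Every probe set was taken whose annotation names exactly 1 of these genes, which gave 28 of the 45101 probe sets on the array. Of these, 25 passed a filter on low signal and were tested. The tissue was the left ventricle, taken from male C57BL/6 mice at 12 to 16 weeks of age. The groups were 3 samples without intact Akt2 on either allele (akt2-/-, a targeted disruption) and 3 wild type samples of matched age, with 1 Affymetrix mouse array for each. The disrupted line had been crossed back to C57Bl/6 more than 7 times, and the labels limit the disruption to no cell type. They do not say whether the samples of a genotype came from separate animals, so each p-value covers the spread between these samples alone, which may be technical.

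In the ventricular myocyte, calcium that enters through the plasma membrane opens the ryanodine receptor Ryr2, and calcium leaves the sarcoplasmic reticulum to start contraction. The pump SERCA2, encoded by Atp2a2, returns it to the store, where calsequestrin holds it, and the sodium-calcium exchanger moves the remainder out of the cell. Phospholamban (Pln) holds the pump back until it is phosphorylated, which is how adrenaline speeds relaxation.

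No member passed the threshold in the knockout against the wild type. In limma, 0 of the 25 tested probe sets had an adjusted p under 0.05, as did 0% of all 22519 tested probe sets, and 3 had an unadjusted p under 0.05, against 2.01% of all. These 3 were the single probe set of Casq1 (log2 difference 1.09, SE 0.382) and the Trdn probe sets 1426143_at (0.86, SE 0.166) and 1426144_x_at (0.40, SE 0.163), each with an adjusted p of 1. In the same 3, every knockout array lay above every wild type array, as in 3.64% of all tested probe sets, and in 0 did every knockout array lie below, against 3.66%. The median log2 difference over the members' brightest tested probe sets was 0.077, and that over all tested probe sets 0.0077. The former was 0.36 without wild type replicate 1, 0.22 without knockout replicate 2, 0.20 without knockout replicate 3, 0.043 without wild type replicate 3, -0.006 without knockout replicate 1 and -0.079 without wild type replicate 2. Intensity here is the MAS5 signal that the authors deposited for a probe set, on a linear scale. Differences are on the scale log2(intensity + 21.7), so they understate changes of dim probe sets.

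The targeted gene was low in each sample labelled knockout. The brightest Akt2 probe set had 2363, 2561 and 2505 in wild type replicates 1 to 3. The knockouts had 478, 395 and 255 (log2 -2.69, SE 0.249). The limma adjusted p of this difference was 0.18, so the fit did not call even the targeted gene. The lack of calls among the members therefore does not show that they were unchanged. In both genotypes the replicate 1 array differed from the rest, though the labels name no batch. Their 18S ribosomal RNA control probe sets had medians of 82300 (wild type) and 57300 (knockout), against 153 to 447 elsewhere, and their median intensities were 167.3 and 134.4, against 88.6 to 91.4. All 10 ventricular myocyte markers, Myh6 and Myl2 among them, were tested and bright, with summed intensities of 459333 to 1491571 in the wild type and 554052 to 897948 in the knockout. In whole tissue, fewer cells of a type and less RNA per cell cannot be told apart. With the replicate 1 arrays set apart as a block, 0 of 25 member probe sets passed (0.00444% of all), and 3 had an unadjusted p under 0.05 (7.77% of all).

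**Figure D1:**
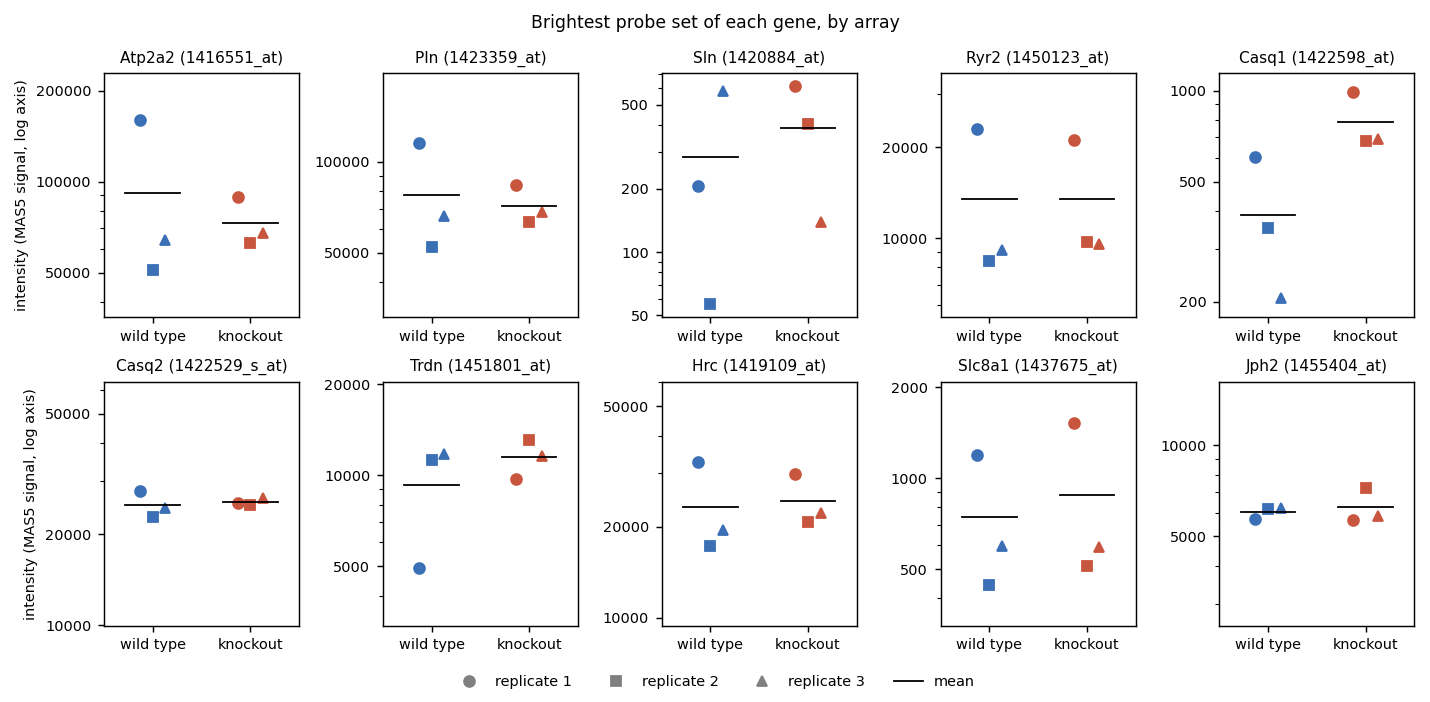
Intensity of the brightest probe set of each of the 10 genes on a log axis, with 1 symbol per array (circle, square and triangle for replicates 1, 2 and 3) and a line at the mean of each genotype. For Casq1 the 3 knockout arrays lie above all 3 wild type arrays. For the other 9 genes the genotypes overlap, and for Atp2a2, Pln, Ryr2, Casq1, Hrc and Slc8a1 the replicate 1 arrays are the highest of their genotype.

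The pump that refills the store gave no difference beyond the spread between arrays. Atp2a2 had 160284, 50821 and 64291 at its brightest probe set, 1416551_at, in wild type replicates 1 to 3. The knockouts had 88695, 62628 and 67490. Wild type replicate 1 was far above the other 5 arrays, and the knockouts lay between the wild types. This gave a log2 difference of -0.16 (SE 0.434, 95% interval -1.19 to 0.87). Without wild type replicate 1 it was 0.33, with a limma adjusted p of 0.809. With quantile normalization it was -0.0096. This probe set was among the brightest on the array, close to some ventricular myocyte markers. Myh6, Tnnt2 and Mb had 49397, 52575 and 48949 in wild type replicate 2 and 62014, 64794 and 60225 in knockout replicate 2. Mybpc3 was lower, at 29784 and 35156. Whether a signal this near the top of the range limited the difference was not tested.

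The other probe sets of Atp2a2 did not share a direction. A second bright one, 1452363_a_at, gave -0.19 (SE 0.407). Its suffix marks a probe set that recognises several transcripts of the gene. The probe sets 1427250_at and 1427251_at gave 0.18 (SE 0.207) and 0.21 (SE 0.207). The knockouts had 13400 ± 2520 and the wild types 11720 ± 1340 (SD, n = 3) at the first. The first of these was higher in every same-numbered pair, by 0.29, 0.17 and 0.087. Among the 25 member probe sets, 4 were higher in every same-numbered pair, against 14.5% of all tested probe sets, and 0 were lower in every pair, against 14.6%. The remaining probe sets, 1437797_at and 1443551_at, gave 0.11 (SE 0.375) and -0.10 (SE 0.219), and the genotypes overlapped at all 6.

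Phospholamban was highest and lowest in the same arrays as the pump. Each listed ventricular myocyte marker had the same highest and lowest arrays, so this order was not particular to Pln and Atp2a2. Pln had 115057, 52351 and 66034 in the wild types and 83668, 63329 and 68051 in the knockouts at 1423359_at. Wild type replicate 1 was again highest and wild type replicate 2 lowest, with the knockouts between. Its log2 difference was -0.047 (SE 0.316, interval -0.80 to 0.70), and the other probe sets, 1450952_at and 1460332_at, gave -0.12 (SE 0.406) and -0.017 (SE 0.32). Since the inhibitor acts on the pump, the log2 intensity of Pln was also set against that of Atp2a2 within each array. This difference was -0.48, 0.043 and 0.039 in the wild types and -0.084, 0.016 and 0.012 in the knockouts. Relative to Atp2a2, Pln was thus 0.11 higher in the knockout mean on the log2 scale, with an exact two-sided permutation p of 1 (n = 3 a genotype, smallest possible p 0.1). The 4 arrays of replicates 2 and 3 lay within a narrow range, and without wild type replicate 1 the difference was -0.059. Both probe sets were among the brightest on the array, and whether this narrowed the range was not tested.

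Between the array sets, replicate 1 and the rest, the differences of Atp2a2 and Pln at their brightest probe sets changed sign together. At the brightest probe set of Atp2a2 the knockout was lower in the replicate 1 pair, by -0.85, and higher in replicates 2 and 3, by 0.19. Pln had -0.46 and 0.16, Hrc -0.14 and 0.22, Casq2 -0.14 and 0.12, and Ryr2 -0.12 and 0.14, each at its brightest probe set. Some other probe sets of these genes did not share this, with 0.29 and -0.18 for Ryr2 1421126_at and 0.29 and 0.13 for Atp2a2 1427250_at. In all, 9 of the 25 member probe sets were lower in the first pair and higher in the others, against 24.5% of all tested probe sets. The difference between the array sets was fitted in limma as a product term of genotype and array set. The first pair holds 1 array a genotype, so the spread in this fit comes from replicates 2 and 3 alone and is assumed to hold for the first pair. In 0 of 25 member probe sets did it pass (0.635% of all), and 4 had an unadjusted p under 0.05 (20.9% of all). For the brightest Atp2a2 probe set it was -1.04 (SE 0.278, adjusted p = 0.144). With a trended, robust variance estimate, added after the data were seen, 3 members had an adjusted p under 0.05: Trdn 1451801_at (0.87, adjusted p = 0.0136), Atp2a2 1416551_at (-1.04, adjusted p = 0.0208) and Pln 1450952_at (-0.86, adjusted p = 0.0435). That estimate called 6.35% of all tested probe sets, and with no replicate in the first pair these values do not show that the array sets differ. Of the 10 ventricular myocyte markers, 9 had the same signs and Actc1 had -0.74 and -0.0061. Their median was -0.68 in the first pair and 0.17 in the others, and their part in these member values was not tested.

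Sarcolipin, the inhibitor of the pump that is typical of atrial muscle, varied most between arrays of one genotype. Sln had 205, 56.6 and 584 in wild type replicates 1 to 3 and 614, 406 and 138 in the knockouts at 1420884_at. The lowest array was wild type replicate 2 and the highest knockout replicate 1, with the genotypes interleaved, for a log2 difference of 0.67 (SE 0.812, interval -1.26 to 2.60). The dim second probe set, 1420883_at, was not tested and had 6.1 to 30.4 in the wild type and 5.8 to 114 in the knockout.

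Of the 4 listed atrial myocyte markers, the light chains Myl7 and Myl4 shared their highest and lowest arrays with Sln, and Nppa and Bmp10 did not. Myl7, the atrial regulatory light chain, had 1101, 96.5 and 1246 in the wild types and 1861, 1321 and 635 in the knockouts. Myl4, the atrial essential light chain, had 2014, 376 and 1560 against 2224, 1604 and 803. Wild type replicate 2 was the lowest array for all 3 genes, knockout replicate 3 the next lowest, and knockout replicate 1 the highest. The order of the other arrays differed, with wild type replicate 1 above wild type replicate 3 for Myl4 and below it for Sln. The summed intensity of all 4 atrial markers, of which 3 were tested, was 15021 to 16120 in the wild type and 15751 to 19826 in the knockout. Nppa had 12804, 14476 and 13298 in the wild types and 11646, 15028 and 18373 in the knockouts, so knockout replicate 1, the highest array for Sln, was its lowest. The dim Bmp10 had 21.4, 72.4 and 16.6 against 19.7, 107 and 15.4, and was not low in wild type replicate 2. The part of atrial tissue in the Sln values was not tested.

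The release channel gave opposite pictures at its probe sets. Ryr2 had 22911, 8401 and 9098 in the wild types and 21027, 9712 and 9527 in the knockouts at 1450123_at. At 1421126_at it had 425, 1844 and 1855 in the wild types. The knockouts had 524, 1710 and 1551 there. The replicate 1 arrays were thus highest at the first probe set, by 1.26 on the log2 scale, and lowest at the second, by -1.83. Between the genotypes the differences were 0.05 (SE 0.484) and -0.025 (SE 0.687). With the replicate 1 arrays as a block, the 95% intervals narrowed to -0.25 to 0.35 and -0.38 to 0.33.

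**Figure D2:**
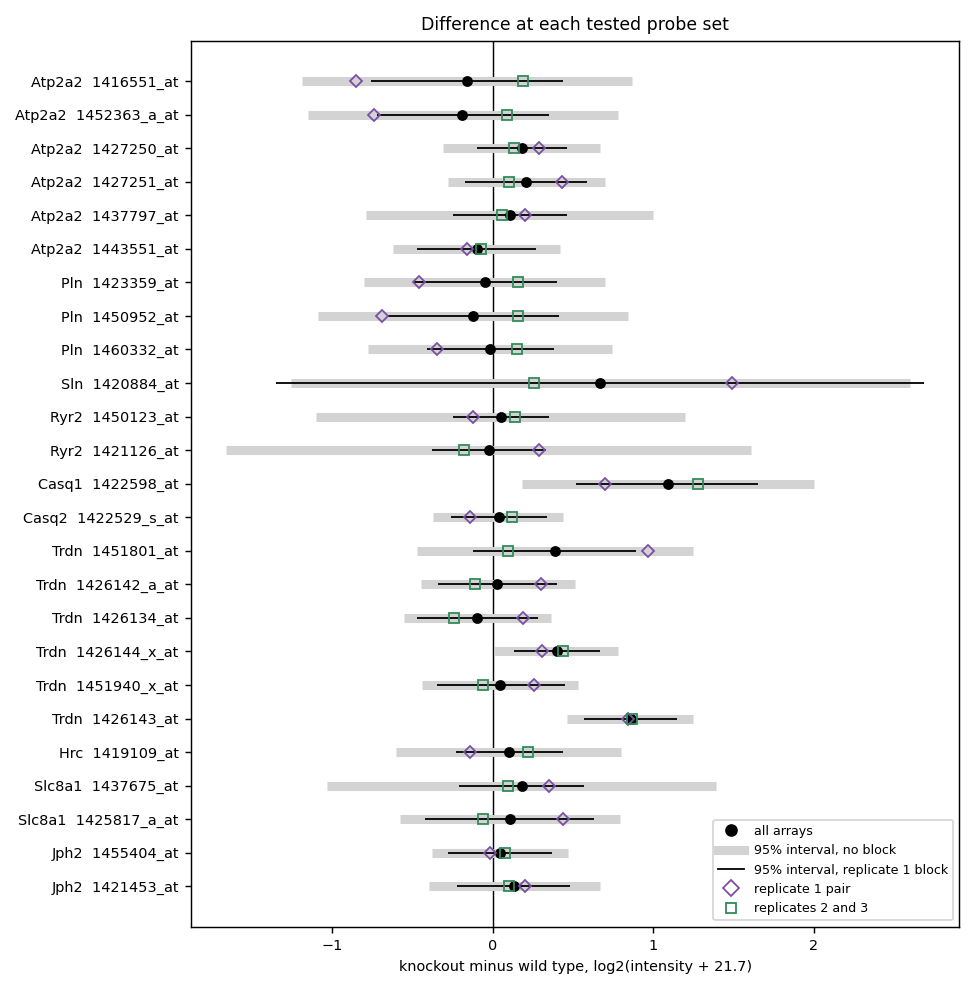
Difference between knockout and wild type at each of the 25 tested probe sets, on the scale log2(intensity + 21.7), with 95% limma intervals without a block (grey) and with the replicate 1 arrays as a block (black line). Diamonds give the replicate 1 pair and squares replicates 2 and 3. Intervals leave 0 out at Casq1 1422598_at and at Trdn 1426143_at and 1426144_x_at, unadjusted for the number of probe sets.

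Triadin anchors calsequestrin to the release channel, and its 6 probe sets gave different results. At 1426143_at, Trdn had 479, 538 and 470 in the wild types and 876, 900 and 971 in the knockouts. The groups were well apart, and each was tight, at 495.6 ± 36.5 against 915.4 ± 49.1 (SD, n = 3). The log2 difference was 0.86 (SE 0.166, interval 0.46 to 1.25), with 0.84, 0.72 and 1.01 for replicate numbers 1, 2 and 3. Its limma adjusted p was 1 without a block, 0.417 with the replicate 1 arrays as a block and 0.827 with the replicate number as a block. It was 0.0892 when the former block was joined to a trended, robust variance estimate. That fit called 0 members and 0.0577% of all tested probe sets, and the brightest Akt2 probe set had a limma adjusted p of 0.00136.

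The probe set 1426144_x_at, whose suffix warns that some of its probes can bind other transcripts, had 1726, 1788 and 1792 in the wild types and 2151, 2461 and 2405 in the knockouts. Here too all knockouts were above all wild types, with a log2 difference of 0.40 (SE 0.163, interval 0.0086 to 0.78). Another probe set designed on the same triadin mRNA, 1426142_a_at, had 2202, 2669 and 3268 against 2721, 2675 and 2801, with overlap and a difference of 0.028 (SE 0.201). The genotype difference of 1426143_at relative to 1426142_a_at was 0.83 on the log2 scale. Its exact two-sided permutation p was 0.1, the smallest that 3 against 3 allows, and 0.15 adjusted over the 3 such comparisons made (n = 3 a genotype). This comparison was chosen after the values were seen. The probe set 1426143_at was taken for the lowest unadjusted limma p of Trdn, and 1426142_a_at for a p not under 0.05. The pair was thus selected on the difference tested, and the permutation p adds no support. Which exons each probe set reads was not analysed here.

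The brightest triadin probe set, 1451801_at, had 4936, 11275 and 11741 in the wild types and 9685, 13113 and 11539 in the knockouts. Wild type replicate 1 was low, and the other arrays overlapped, with a difference of 0.39 (SE 0.362) that became -0.018 without that array. The probe sets 1426134_at and 1451940_x_at gave -0.095 (SE 0.19) and 0.047 (SE 0.204), with overlap at both.

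**Figure D3:**
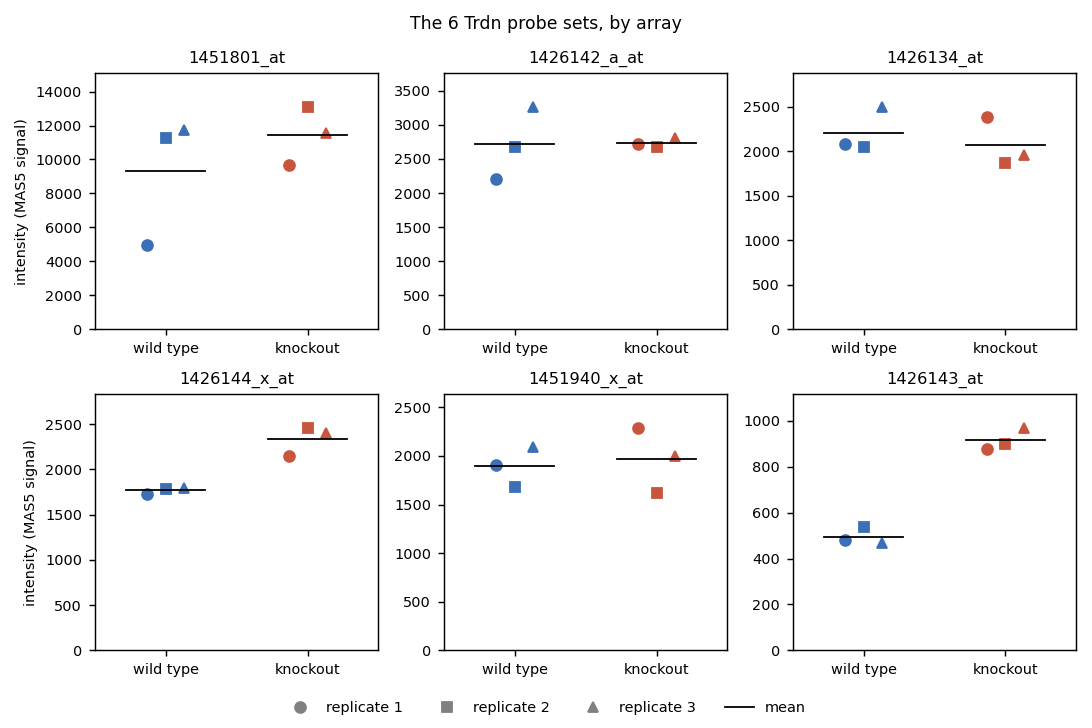
Intensity of the 6 Trdn probe sets on linear axes from 0, with 1 symbol per array and a line at each genotype mean. The 3 knockout arrays lie above the 3 wild type arrays at 1426143_at (876 to 971 against 470 to 538) and at 1426144_x_at (2151 to 2461 against 1726 to 1792), and the genotypes overlap at the other 4.

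Junctophilin 2 holds the store close to the plasma membrane where release begins. Jph2 had 5733, 6154 and 6189 in the wild types and 5669, 7251 and 5831 in the knockouts at 1455404_at. The arrays were alike and overlapped, with a log2 difference of 0.045 (SE 0.18, interval -0.38 to 0.47). The second probe set, 1421453_at, had 0.13 (SE 0.224), from 1348 ± 245 for the wild types and 1476 ± 263 for the knockouts (SD, n = 3).

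The calsequestrins bind calcium inside the store, Casq2 as the cardiac form and Casq1 as the form of fast skeletal muscle. Casq1 gave the largest log2 difference of the tested members and Casq2 among the smallest, so the 250 bases before the start of each gene are shown. They come from the RefSeq promoter table of build GRCm38.p6, which holds 7 of the 10 members. Casq1 lies at chr1:172219896-172220145 on the minus strand and Casq2 at chr3:102086165-102086414 on the plus strand, each written 5′ to 3′ along its gene. Capitals mark matches to CANNTG, the E-box that muscle basic helix-loop-helix factors can bind, which reads the same on both strands.
Casq1: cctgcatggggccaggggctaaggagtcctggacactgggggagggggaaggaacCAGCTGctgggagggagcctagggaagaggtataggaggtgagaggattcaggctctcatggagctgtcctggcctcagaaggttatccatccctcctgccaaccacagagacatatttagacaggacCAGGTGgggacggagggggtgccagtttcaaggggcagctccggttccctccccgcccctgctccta
Casq2: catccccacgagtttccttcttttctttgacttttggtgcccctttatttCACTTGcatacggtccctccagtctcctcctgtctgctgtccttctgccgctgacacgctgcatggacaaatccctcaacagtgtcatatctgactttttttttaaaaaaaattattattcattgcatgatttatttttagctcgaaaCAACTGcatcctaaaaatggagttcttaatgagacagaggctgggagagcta
Each window held 2 matches, CAGCTG and CAGGTG before Casq1, and CACTTG and CAACTG before Casq2. At least 1 match was found in 66.2% of 32851 promoter windows of that length, so such a match is common.

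Casq1 had 603, 351 and 206 in the wild types and 990, 680 and 694 in the knockouts at 1422598_at, its only probe set. The lowest knockout was above the highest wild type, and the means were 787.8 ± 175 and 386.5 ± 201 (SD, n = 3). The log2 difference was 1.09 (SE 0.382, interval 0.18 to 2.00), made up of 0.70 for the replicate 1 pair and 1.28 for the other arrays. Its limma adjusted p was 1 without a block, 0.625 with the replicate 1 arrays as a block and 0.827 with the replicate number as a block.

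Casq2 had 27845, 22759 and 24359 in the wild types and 25311, 24994 and 26372 in the knockouts. Its arrays overlapped, with a difference of 0.037 (SE 0.17, interval -0.37 to 0.44). The genotype difference of Casq1 relative to Casq2 was 1.05 on the log2 scale. Its exact two-sided permutation p was 0.1, the smallest possible, and 0.15 adjusted over the 3 comparisons (n = 3 a genotype). The choice of this comparison was also made after the values were seen. Casq1 was already separated and Casq2 nearly level, so the permutation p restates the Casq1 values and adds no support.

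Markers of skeletal muscle were set beside Casq1. Of 10 listed genes 3 were tested, and the summed intensity of the 10 was 3209 to 5303 in the wild type and 5250 to 8131 in the knockout. Myl1, a fast light chain, had 1685, 4249 and 4835 of it in wild type replicates 1 to 3 and 4705, 6545 and 7553 in the knockouts (log2 0.91, SE 0.426, limma adjusted p = 1). The knockout was higher in each same-numbered pair, and the genotypes overlapped. The limma adjusted p of Myl1 was 0.625 with the replicate 1 arrays as a block. With the replicate number as a block it was 0.827, and both values were the same for Casq1. The defining fast myosins were dim in both genotypes, with 0.8 to 253 for Myh4 and 27.6 to 129 for Myh1 in the wild type, and 29.0 to 74.2 and 3.7 to 40.8 in the knockout. Mylpf and Tnni2, the other tested markers, gave -0.10 (SE 0.536) and -0.86 (SE 0.495). The part of skeletal muscle in the Casq1 values was not tested.

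**Figure D4:**
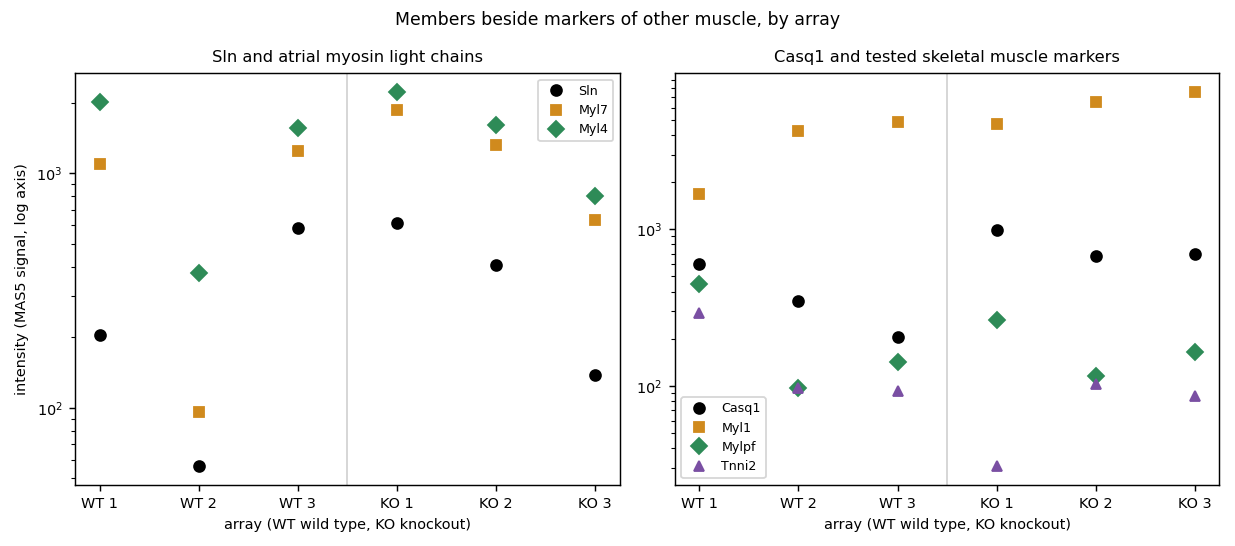
Intensity by array on log axes, with Sln beside the atrial light chains Myl7 and Myl4 (left) and Casq1 beside the 3 tested skeletal muscle markers (right). For Sln, Myl7 and Myl4 alike, wild type replicate 2 is the lowest array and knockout replicate 1 the highest, and for Casq1 all knockouts lie above all wild types while the genotypes overlap for Myl1, Mylpf and Tnni2.

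Hrc, a histidine-rich protein of the store that binds both triadin and the pump, had 32793, 17271 and 19520 in the wild types and 29842, 20705 and 22172 in the knockouts. The replicate 1 arrays were highest in both genotypes, and the genotypes overlapped. The log2 difference was 0.10 (SE 0.295, interval -0.60 to 0.80).

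The sodium-calcium exchanger Slc8a1 carries calcium out across the plasma membrane. It had 1192, 444 and 597 in the wild types and 1524, 514 and 592 in the knockouts at 1437675_at, where again the replicate 1 arrays were highest. The log2 difference was 0.18 (SE 0.509), and that of 1425817_a_at was 0.11 (SE 0.288). The remaining probe sets were too dim to be tested. At 1440201_at the wild types had 51.6 to 83.6 and the knockouts 48.2 to 106, and at 1420210_at they had 5.3 to 47.5 and 37.4 to 142.

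Other genes of calcium handling were taken as 7 lists of 47 genes, of which 41 had a probe set and 32 passed the filter at the brightest one. In limma 0 of the 32 passed the threshold (0% of all tested probe sets), and 0 had an unadjusted p under 0.05 (2.01% of all). Of the 32, 17 were higher and 15 lower in the knockout, with a median log2 difference of 0.0015. With the replicate 1 arrays as a block 0 passed (0.00444% of all) and 2, Ryr3 and Camk2b, had an unadjusted p under 0.05, a share near the 7.77% of all tested probe sets.

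Among the release channels and their regulators, 6 of 9 were higher, with a median of 0.13. Ryr3, a ryanodine receptor best known from other tissues, had 13.5, 120 and 169 in the wild types and 159, 237 and 235 in the knockouts (log2 1.22, SE 0.612). The signal was dim, and knockout replicate 1 overlapped the wild types. Camk2b, a chain of the calcium/calmodulin kinase, had 249, 184 and 217 against 295, 310 and 251 (0.37, SE 0.19), with all knockouts above all wild types, as in 1 of the 32 genes and 3.64% of all tested probe sets. Camk2g, a further chain, had 0.27 (SE 0.199).

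In the lumen and its counter-ion channels 3 of 4 genes were higher, with a median of 0.059. Tmem38b, a TRIC potassium channel, had 0.40 (SE 0.448), Srl, the calcium-binding sarcalumenin, 0.12 (SE 0.173), and Tmem38a -0.0061 (SE 0.255). Of the other pumps and pump regulators 4 of 6 were higher, with a median of 0.094. Ppp1r1a, a phosphatase 1 inhibitor, had 0.37 (SE 0.376), the pump Atp2a3 -0.16 (SE 0.188), and Hax1, a partner of phospholamban, 0.18 (SE 0.229).

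All 3 tested junction and T-tubule genes were lower in the knockout mean, at a median of -0.17. Jph1 had -0.25 (SE 0.216), Bin1, which shapes T-tubules, -0.17 (SE 0.206), and the caveolar Cav3 -0.031 (SE 0.243). Each lay lower in the replicate 1 pair, with a median of -0.60, and not in replicates 2 and 3, with 0.039. The inositol trisphosphate receptors Itpr2 and Itpr3 had -0.13 (SE 0.192) and -0.14 (SE 0.312), and the plasma membrane pumps Atp2b1 and Atp2b3 had 0.11 (SE 0.182) and 0.16 (SE 0.249). Of the mitochondrial and store-operated genes 2 of 6 were higher, with a median of -0.11. Orai1, the store-operated channel, had -0.13 (SE 0.232), the mitochondrial exchanger Slc8b1 -0.095 (SE 0.179) and the store sensor Stim2 -0.20 (SE 0.388).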

How the data were processed

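The deposited values are intensities, 1 linear signal per probe set and array, computed with MAS5 per the submitters' processing notes. Sources used here give neither its version nor its settings. The mean without the 2% extremes at each end was 500 on every array, so 1 scaling factor per array had been applied, and it was kept. No test used the 64 control probe sets. Signals were put on log2(intensity + 21.7), the 20th percentile of all values. The 22519 probe sets with a mean log2 at or above the median, 6.868, were fitted with limma 3.58.1 in R 4.3.3 (lmFit, eBayes, no covariate), with Benjamini-Hochberg adjustment over all of them and a threshold of 0.05. The fit was run on simulated data with known changes, a check that set no demand on the share recovered or on false calls. Of the probe sets other than controls, 34945 had 1 gene symbol, 932 several and 9160 are unnamed here. The number of arrays limits the precision. The members, lists and tests were chosen with earlier results of these data known. All members were named, and of each wider list up to 3 genes by lowest unadjusted p. Same-numbered arrays of both genotypes deviated together, with correlations of 0.61, 0.45 and 0.39. Numbers 2 and 3 crosswise gave 0.44 and 0.36, so only the replicate 1 arrays stood apart as a pair. The replicate number and the replicate 1 arrays were used as blocks in alternatives, beside other pseudocounts (1 and 100), filters, scalings, variance estimates and fits without each array.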

Additional observations from a re-analysis of the deposited data

How the results depend on the processing

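Over the alternatives tried, 0 member probe sets and 0 of the wider calcium handling genes passed the limma threshold. These included the replicate block, the replicate 1 arrays as a block and fits without each array, so neither block changed a call. The median log2 difference over the member genes was 0.076 to 0.15 over 12 alternatives and -0.079 to 0.36 when each array in turn was left out. Casq1 kept its direction, at 0.93 to 1.28 and, without each array, 0.73 to 1.45, as did the Trdn probe sets 1426143_at (0.77 to 0.88 and 0.82 to 0.92) and 1426144_x_at (0.38 to 0.44 and 0.36 to 0.46). With the replicate block, the adjusted p of each of these 3 was 0.827. Signs turned for Atp2a2 in replicates 2 and 3 alone (0.19) and with the mean of its probe sets (0.0084), and for Pln in replicates 2 and 3 alone (0.16) and with quantile normalization (0.019). Leaving out each array in turn gave -0.49 to 0.33 for Atp2a2, -0.29 to 0.28 for Pln, -0.077 to 1.4 for Sln, -0.33 to 0.51 for Ryr2, -0.027 to 0.12 for Casq2, -0.018 to 0.6 for Trdn at its brightest probe set, -0.08 to 0.38 for Hrc, -0.3 to 0.57 for Slc8a1, -0.066 to 0.11 for Jph2 and -0.059 to 0.2 for Pln relative to Atp2a2. Those fits leave unequal shares of the replicate 1 arrays in the genotypes. The product term of genotype and array set called 0 members under 4 of 5 added alternatives and 3 with the trended, robust variance estimate, and the cause was not tested.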
